A study of Mus musculus with 31 samples.

Results

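The genes described here are 38 markers of the blood vessel wall and its connective tissue: endothelial cells, which line vessels, the mural cells (pericytes and smooth muscle) wrapped around them, and fibroblasts with the collagens they deposit. The list gives them by gene name, with no threshold on measured values, and 37 of the 38 had a probe set assigned to that gene alone, among 18194 genes measured on Affymetrix mouse arrays. Ly6c1, a surface protein of brain endothelium, had none and is not described further. The arrays held total RNA of tumours and cultures from C57BL/6 mice. Tumour tissue came from 8 medulloblastomas, tumours of the cerebellum, of mice heterozygous for Ptch, the receptor that restrains Hedgehog signalling, and wild type for p53. A line of cancer stem cells (CSC), grown as floating spheres in EGF and FGF2, came from each of those 8 tumours, and tissue and line carry the same tumour number (74, 91, 92, 9, 49, 68, 77 and 83). CSC from 2 further tumours, named 27 and B, were grown from mice that carried 1 mutant copy of each of Ptch and p53, and 3 technical replicate arrays of each were averaged. Neural stem cells (NSC), grown in the same medium, came from mice at postnatal day 7, with 3 cultures each from the IV ventricle region, the cerebellar white matter and the subventricular zone (SVZ). Tissue of p53 heterozygous tumours is not analysed here, and nothing in the labels says that the tissue was sorted for any cell type.

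Brain capillaries are tubes of endothelial cells sealed by tight junctions and held together by adhesion proteins such as VE-cadherin. Endothelial cells respond to VEGF and angiopoietins through the receptors encoded by Kdr, Flt1 and Tek, and they recruit pericytes through PDGF-B acting on the receptor encoded by Pdgfrb. Vessel wall and meningeal fibroblasts secrete fibrillar collagens and small proteoglycans, while both endothelium and pericytes build a basement membrane rich in collagen IV. Sphere cultures in serum-free medium select for dividing precursor cells and do not maintain vessels.

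All values are log2 intensities as processed by the authors with RMA, and 1 unit is a doubling. A difference is on that log2 scale with its standard error, and "called" means an adjusted p under 0.05 (limma, Benjamini-Hochberg over all 18194 genes). As a rough guide to the level of silent genes, 71 olfactory and vomeronasal receptor genes had a median of 1.40 and a 95th percentile of 2.71, though probe sets differ in brightness. The mean lay above 2.71 for 29 of the 37 genes in tissue, 13 in the lines, 18 in tumour 27, 19 in tumour B and 12 in the NSC, while over all genes that share was between 64.9% and 66.6% in all of these.

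Many of these genes rose together in tissue, so the DNA just before their start sites was read from RefSeq windows on GRCm38.p6. Windows were listed for 24 of the 37 measured genes, each covering 250 bases before and 50 bases after the start. The letters AGGAAG, a core bound by ETS family factors that act in endothelium, were searched on both strands. At least 1 copy lay in 8 of 11 endothelial genes (72.7%), 0 of 7 mural genes and 3 of 6 fibroblast and collagen genes, and in 38.4% of the 27025 genes in the table. These are matches of letters and say nothing of binding. The 250 bases before the start are shown, along the gene's own strand with AGGAAG or its reverse complement in capitals, for 4 genes that the results turn on (Cldn5, Rgs5, Col3a1 and Col6a1) and for the endothelial genes Slco1a4 and Eng, which carry the letters. Cldn5 lies at chr16:18776597-18776846 on the plus strand, Slco1a4 at chr6:141856221-141856470 on the minus strand and Eng at chr2:32646345-32646594 on the plus strand. Rgs5 lies at chr1:169655251-169655500 and Col3a1 at chr1:45311288-45311537, both on the plus strand, and Col6a1 at chr10:76726045-76726294 on the minus strand.
Cldn5: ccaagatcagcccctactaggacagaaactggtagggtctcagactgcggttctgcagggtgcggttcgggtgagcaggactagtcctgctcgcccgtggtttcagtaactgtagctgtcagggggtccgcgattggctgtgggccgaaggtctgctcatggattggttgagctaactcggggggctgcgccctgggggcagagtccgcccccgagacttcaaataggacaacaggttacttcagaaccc
Slco1a4: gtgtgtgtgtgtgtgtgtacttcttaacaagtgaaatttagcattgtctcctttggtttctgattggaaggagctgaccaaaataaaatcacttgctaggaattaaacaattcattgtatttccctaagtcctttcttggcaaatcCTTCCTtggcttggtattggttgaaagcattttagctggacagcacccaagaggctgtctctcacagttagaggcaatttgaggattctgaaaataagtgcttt
Eng: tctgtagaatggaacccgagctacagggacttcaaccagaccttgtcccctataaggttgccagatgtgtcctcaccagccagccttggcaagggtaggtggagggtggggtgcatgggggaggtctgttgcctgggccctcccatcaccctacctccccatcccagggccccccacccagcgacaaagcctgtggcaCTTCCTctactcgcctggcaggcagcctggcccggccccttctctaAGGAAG
Rgs5: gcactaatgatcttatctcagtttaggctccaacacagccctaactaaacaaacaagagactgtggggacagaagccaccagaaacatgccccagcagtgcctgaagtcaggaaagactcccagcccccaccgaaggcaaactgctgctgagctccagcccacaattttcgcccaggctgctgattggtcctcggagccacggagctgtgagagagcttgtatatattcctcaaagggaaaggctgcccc
Col3a1: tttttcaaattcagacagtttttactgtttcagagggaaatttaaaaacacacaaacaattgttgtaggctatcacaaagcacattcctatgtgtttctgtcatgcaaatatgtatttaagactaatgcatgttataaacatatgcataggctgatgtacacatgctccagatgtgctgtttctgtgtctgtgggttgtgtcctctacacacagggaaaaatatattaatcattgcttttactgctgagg
Col6a1: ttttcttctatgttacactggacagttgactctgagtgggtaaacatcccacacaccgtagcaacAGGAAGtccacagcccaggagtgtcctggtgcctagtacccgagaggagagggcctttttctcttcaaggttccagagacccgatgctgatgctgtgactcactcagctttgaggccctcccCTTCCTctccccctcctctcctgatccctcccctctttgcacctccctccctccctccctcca

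Tumour tissue showed higher signal for most vessel and connective tissue genes than the lines grown from it. Of the 37 genes, 31 were higher in tissue (83.8%) and 2 lower (5.4%, Des and Col5a1), against 23.1% higher and 26.6% lower among all genes, and 4 were not called (Robo4, Anpep, Cd248 and Myh11). The median difference was 0.92, against -0.06 over all genes. All 8 tissues lay above all 8 lines for 21 of the 37 genes and below them for 1, against 2055 and 2112 of all 18194 genes. In bulk RNA, fewer cells of a type and less RNA per cell cannot be told apart.

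**Figure D1:**
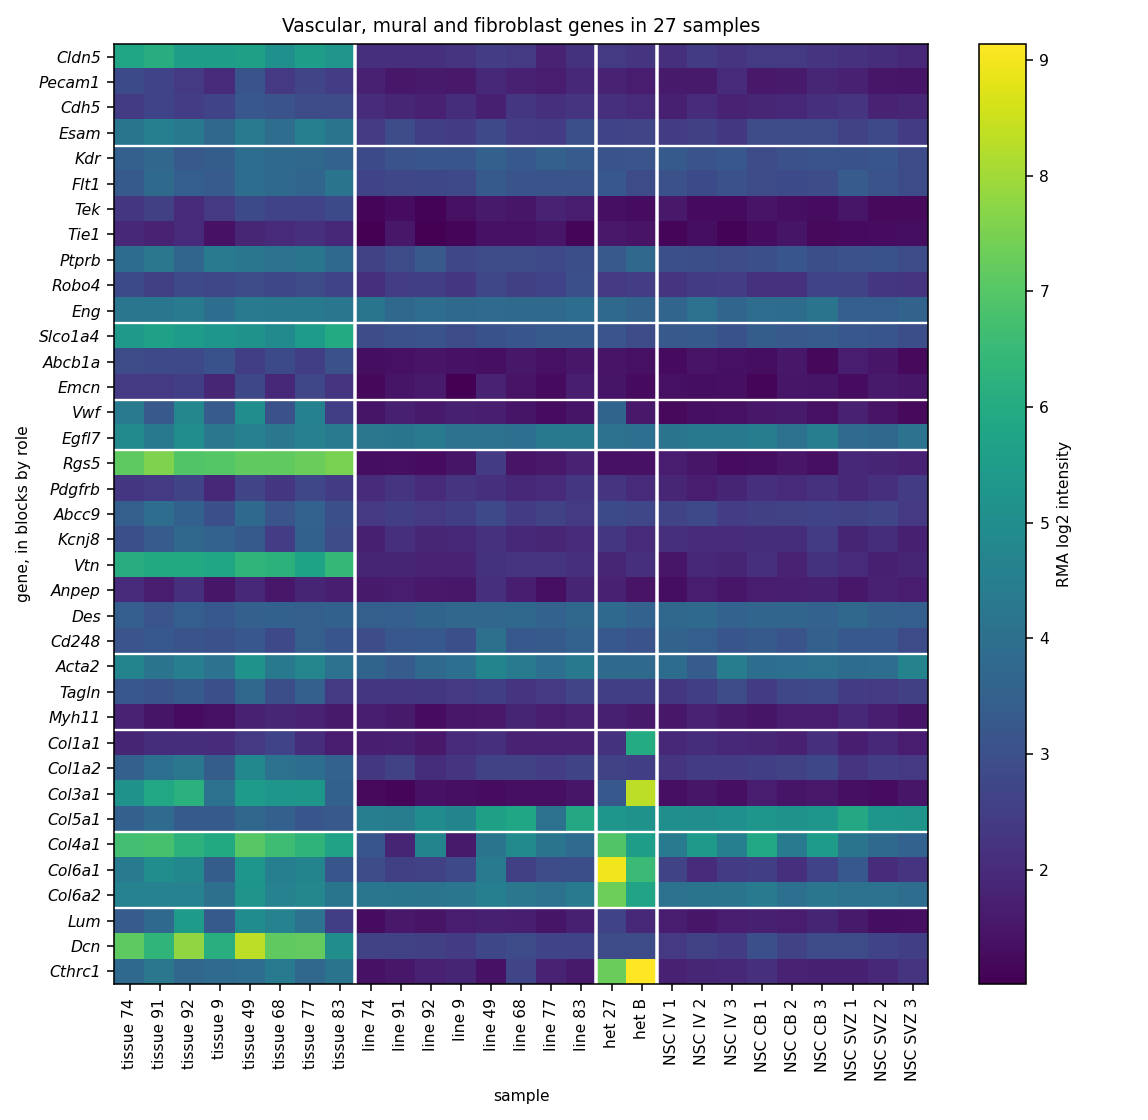
Log2 intensity (colour) of the 37 measured genes (vertical, in blocks by role) in 27 samples (horizontal: 8 tissues, 8 lines, the p53 heterozygous tumours 27 and B as means of 3 arrays, and 9 NSC cultures of the IV ventricle, cerebellar white matter (CB) and SVZ). Rgs5, Vtn, Cldn5 and Dcn stand out across the tissues, and Cthrc1, Col6a1 and Col3a1 in the p53 heterozygous tumours.

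Among endothelial junction genes, all 4 rose in tissue. Cldn5, the main claudin of the blood-brain barrier, had a lowest value of 5.08, a median of 5.57 and a highest of 6.07 in tissue, and 1.78, 2.17 and 2.49 in the lines. No line came near any tissue, and the difference was 3.38 ± 0.13 (adjusted p = 2.28e-08, higher in 8 of 8 pairs). Esam, an endothelial adhesion molecule, spanned 3.76 to 4.53 in tissue and 2.38 to 3.00 in the lines, and rose by 1.60 ± 0.10 (adjusted p = 6.44e-07). Pecam1 (0.85 ± 0.10, adjusted p = 5.43e-05) and Cdh5, which encodes VE-cadherin (0.77 ± 0.11, adjusted p = 0.000177), also separated the groups without overlap. Both did so at low signal: Pecam1 ran from 2.02 to 3.12 in tissue and 1.52 to 1.93 in the lines, and Cdh5 from 2.41 to 3.22 and 1.73 to 2.29.

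Of 7 endothelial receptor genes, 6 rose, by 0.35 to 1.16. Ptprb, the endothelial phosphatase that acts on Tek and VE-cadherin, had values of 3.65, 4.10 and 4.39 (lowest, median, highest) in tissue and 2.61, 2.88 and 3.27 in the lines, or 1.16 ± 0.13 higher in tissue (adjusted p = 2.83e-05). Tek, the angiopoietin receptor, ran from 1.98 to 2.85 in tissue and from 1.08 to 1.83 in the lines (1.09 ± 0.07, adjusted p = 6.52e-07). Flt1, a VEGF receptor and decoy, differed by 0.73 ± 0.08 (adjusted p = 3.14e-05), with its highest line, 49 at 3.30, just under the lowest tissue, 74 at 3.31. Kdr, the main signalling VEGF receptor, showed 0.37 ± 0.08 (adjusted p = 0.00257), with tissue from 3.28 to 3.96 and lines from 2.85 to 3.51, so the groups overlapped although tissue was higher in 8 of 8 pairs. Tie1, an orphan partner of Tek, and Eng, a coreceptor for TGF-beta and BMP, also overlapped (0.61 ± 0.09, adjusted p = 0.000304, and 0.35 ± 0.07, adjusted p = 0.00234). In both, tissue 9 was the lowest of the 8 tissues, at 1.41 for Tie1 and 3.96 for Eng. Robo4, an endothelial guidance receptor, was not called (0.22 ± 0.10, adjusted p = 0.0945).

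Genes of transport and secretion in brain endothelium rose as well. Slco1a4, an organic anion transporter of the blood-brain barrier, had values of 4.88, 5.44 and 5.97 in tissue and 2.90, 3.08 and 3.32 in the lines, or 2.32 ± 0.11 higher in tissue (adjusted p = 6.38e-08). Abcb1a, the drug efflux pump of that barrier, ran from 2.51 to 3.06 in tissue and 1.32 to 1.53 in the lines (1.39 ± 0.07, adjusted p = 1.54e-07), and Emcn, a sialomucin of capillary and venous endothelium, from 1.88 to 2.77 and 1.02 to 1.8 (0.93 ± 0.11, adjusted p = 5.09e-05). Lines and tissues were apart for all 3 genes. Vwf, the clotting factor stored in endothelial cells, spread widely among tissues, from 2.53 in tissue 83 over a median of 3.86 to 4.99 in tissue 49, but stayed between 1.28 and 1.74 in the lines (2.31 ± 0.29, adjusted p = 7.35e-05). Egfl7, an endothelial secreted factor, was high in both, from 4.22 to 4.98 in tissue and 3.98 to 4.34 in the lines, with a difference of 0.33 ± 0.08 (adjusted p = 0.00793).

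Pericyte genes ran from the largest of the 37 differences to none. Rgs5, a regulator of G-protein signalling enriched in pericytes, had values of 6.92, 7.16 and 7.56 in tissue and 1.27, 1.47 and 2.43 in the lines, the last in line 49. The difference was 5.62 ± 0.13 (adjusted p = 7.77e-10), and 2.05 to 2.52 on its 3 other probe sets. Vtn, the adhesion protein vitronectin that brain pericytes secrete, ran from 5.74 to 6.42 in tissue and from 1.78 to 2.23 in the lines (4.06 ± 0.09, adjusted p = 4.01e-10). For both, the 8 tissues lay within 0.68 of each other or less while the gap to the lines was several times wider. Kcnj8 and Abcc9, which together form the pericyte potassium channel sensitive to ATP, rose by 1.28 ± 0.14 (adjusted p = 2.61e-05) and 0.92 ± 0.10 (adjusted p = 3.64e-05), without overlap. Pdgfrb rose by 0.32 ± 0.12 (adjusted p = 0.0417), with tissue from 1.91 to 2.73 and lines from 1.95 to 2.31. Anpep, an aminopeptidase of pericytes (0.12 ± 0.10, adjusted p = 0.364), and Cd248, endosialin (-0.16 ± 0.12, adjusted p = 0.289), were not called; line 49 had the highest Cd248 value, at 4.0. Des, the muscle intermediate filament desmin, was lower in tissue in 8 of 8 pairs (-0.22 ± 0.06, adjusted p = 0.0134), with tissue from 3.14 to 3.53 and lines from 3.43 to 3.74.

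Of 3 smooth muscle genes, 2 rose in tissue. Tagln, which encodes the actin-binding protein SM22, had values of 2.39, 3.14 and 3.71 in tissue and 2.23, 2.35 and 2.70 in the lines (0.75 ± 0.15, adjusted p = 0.00167, higher in 7 of 8 pairs), and only tissue 83 fell among the lines. Acta2, smooth muscle actin, overlapped more, from 4.07 to 5.19 in tissue and 3.38 to 4.67 in the lines (0.45 ± 0.15, adjusted p = 0.0259, higher in 6 of 8 pairs). Myh11, the myosin heavy chain of mature smooth muscle, was at 1.29 to 1.88 in tissue and 1.27 to 1.85 in the lines (0.00 ± 0.07, adjusted p = 0.98).

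Of 10 fibroblast and collagen genes, 9 rose in tissue. Dcn, the collagen-binding proteoglycan decorin, was at 5.02 in tissue 83, a median of 7.14 and 8.33 in tissue 49, against 2.44, 2.62 and 2.89 in the lines (4.25 ± 0.30, adjusted p = 1.48e-06). Col3a1, a fibrillar collagen of vessel walls and loose connective tissue, ran from 3.52 in tissue 83 over a median of 5.31 to 6.19 in tissue 92, against 1.13 to 1.49 in the lines (3.78 ± 0.29, adjusted p = 2.45e-06). Lum, the proteoglycan lumican, ran from 2.53 in tissue 83 to 5.49 in tissue 92, against 1.28 to 1.72 in the lines (2.44 ± 0.30, adjusted p = 6.87e-05). Every tissue exceeded every line for these 3 genes, and for Col1a2, the second chain of collagen I (1.49 ± 0.15, adjusted p = 1.64e-05), and Cthrc1, a secreted protein of collagen-producing fibroblasts (2.20 ± 0.12, adjusted p = 2.66e-07). Col4a1, a basement membrane collagen, was at 5.68, 6.45 and 7.04 in tissue and 1.61, 3.99 and 4.89 in the lines (2.87 ± 0.38, adjusted p = 0.000125). The lines were uneven, with lines 9 and 91 at 1.61 and 1.86 and the other 6 at 3.18 or more. Col6a1, a chain of the microfibrillar collagen VI, rose by 1.44 ± 0.24 (adjusted p = 0.000615), and line 49, at 4.38, lay above 3 of the 8 tissues. Its partner chain Col6a2 (0.34 ± 0.11, adjusted p = 0.0304) and Col1a1, the first chain of collagen I (0.27 ± 0.10, adjusted p = 0.0455), overlapped between the groups.

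Col5a1, a collagen that starts and limits fibril growth, went the other way. It was at 3.18, 3.40 and 3.85 in tissue and at 4.06, 4.81 and 5.92 in the lines, without overlap (-1.55 ± 0.22, adjusted p = 0.000187, lower in 8 of 8 pairs). The NSC had 4.98 to 5.92. Both other Col5a1 probe sets were lower in tissue too, by -1.84 ± 0.21 and -1.08 ± 0.12.

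**Figure D2:**
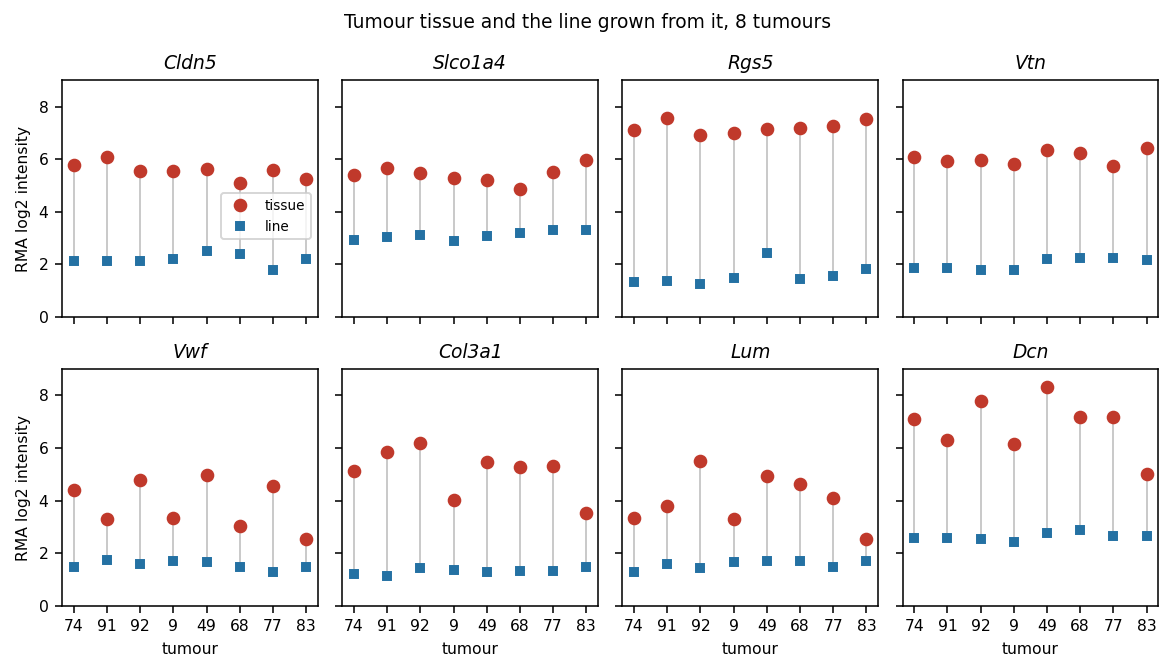
Log2 intensity (vertical) of 8 genes in each tumour's tissue (circles) and line (squares), joined by a line for each of the 8 tumours (horizontal). Cldn5, Slco1a4, Rgs5 and Vtn span 0.64 to 1.09 across the tissues, and Vwf, Col3a1, Lum and Dcn span 2.46 to 3.31 with the lowest value in tissue 83.

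Calls near the threshold came and went with single tumours. Col1a1 lost its call when any of tumours 74, 91, 92, 9, 49, 68 or 77 was left out (adjusted p from 0.0534 to 0.104), Pdgfrb without 74, 92, 49, 68, 77 or 83 (0.053 to 0.0999), Col6a2 without 74, 91, 92, 49, 68 or 77 (0.058 to 0.0749) and Acta2 without 74, 91, 92, 49 or 77 (0.0517 to 0.0637). Robo4 was called without tumour 83 (0.30, adjusted p = 0.0164). Among the 4 tumours whose tissue and line share a date-like mark in their labels, 26 of the 37 genes were called. In that fit 7307 of all genes were called, against 33 of the 37 and 9033 of all genes in the main fit. Calls were lost there for Kdr (0.38, adjusted p = 0.0549), Eng (0.27, 0.105), Egfl7 (0.39, 0.0527) and Des (-0.25, 0.103). They were also lost for Pdgfrb (0.18, adjusted p = 0.456), Col1a1 (0.26, 0.0959) and Col6a2 (0.28, 0.167).

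Where genes had several probe sets, these did not always agree. Of 68 probe sets of the 37 genes, tested individually as a choice made after seeing the data, 49 were higher in tissue, 5 lower and 14 not called. Several large differences were smaller on other probe sets of the gene. Vtn rose by 2.02 ± 0.13 on its second probe set, against 4.06 above, Col3a1 by 0.78 ± 0.15 against 3.78, and Col4a1 by 1.78 ± 0.18 against 2.87. Col1a2 rose by 1.01 ± 0.13 on 1 further probe set and was not called on another (-0.04 ± 0.06). Others were larger. The second Pdgfrb probe set rose by 1.62 ± 0.26, where the one used above gave 0.32. The one used was brighter over all arrays, but in tissue the second read 2.72 against 2.43, and in the lines 1.09 against 2.11. The 2 further Abcc9 probe sets rose by 2.61 ± 0.20 and 0.67 ± 0.13, and the further Ptprb probe sets gave 1.68 ± 0.12 and 0.10 ± 0.06, the latter not called. Cdh5 alone had probe sets called in opposite directions, with its dimmer one lower by -0.20 ± 0.06 (adjusted p = 0.0214). The dimmer probe sets of Dcn (-0.10 ± 0.08) and Myh11 (-0.15 ± 0.07), and both dimmer ones of Acta2 (-0.10 and -0.13), were not called.

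Among the 3 groups of members, the range over the tissues was widest for fibroblast and collagen genes. The range from lowest to highest tissue had a median of 1.38 over the 10 fibroblast and collagen genes, 0.79 over the 16 endothelial genes, 0.68 over the 11 mural genes and 0.53 over all genes. Tissue 49 was the highest of the 8 for 5 of the 10 fibroblast and collagen genes and tissue 83 the lowest for 6, and tissue 49 was also the highest for 8 of the 16 endothelial genes. Dcn in order was 8.33 in tissue 49, 7.79 in 92, 7.19 in 77, 7.17 in 68, 7.12 in 74, 6.32 in 91, 6.15 in 9 and 5.02 in 83, and each tumour was a single array, so neighbours in this order cannot be told apart from the spread of repeated arrays. Tissue 83, lowest for Dcn, Lum, Col3a1, Col6a1, Vwf and Tagln, was the highest of all for Vtn (6.42) and Slco1a4 (5.97). Transthyretin, made by choroid plexus epithelium, was highest in tissue 92, at 10.24 in tissue 49 and at 3.19 to 4.05 in the other 6, and Folr1 of the same epithelium at 5.62, 3.31 and 1.53 to 2.05. Tissues 92 and 49 were the highest for Lum, Dcn and Vwf, and the part of choroid plexus in this was not tested.

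Other cell types of the tissue moved beside the vessel genes. All 17 microglia and macrophage genes were higher in tissue, with a median difference of 3.98, and their summed linear intensity ran from 1269 to 3222 in tissue and 63 to 86 in the lines, where 14 of 17 lay at or below the guide of 2.71. Of 10 neuronal genes, 9 were higher (summed intensity 3607 to 6794 against 102 to 156). C1qb, a complement gene of microglia, rose by 7.09 ± 0.12 and Neurod1, a granule neuron factor, by 8.38 ± 0.30. Of 5 red blood cell genes, 1 was higher (Hba-a2, 0.56 ± 0.10), with 4 of 5 at or below the guide in tissue, and of 8 genes of other blood cells 2 were higher and 1 lower. Of 11 choroid plexus and ependymal genes, 3 were higher and 8 lay at or below the guide in tissue. Schwann cell and neural crest genes gave 3 higher and 1 lower of 7, and cartilage genes 1 and 3 of 12. The part of these cells in the member differences was not tested.

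Further genes of the same pathways were called in both directions, as were all genes (23.1% higher and 26.6% lower in tissue). Among 17 endothelial transcription factors, 8 were higher and 2 lower, with Sox18, a factor of vessel development, at 7.67 against 2.09 (5.58 ± 0.19, adjusted p = 8.21e-09) and Fli1, an ETS factor, higher by 0.78 ± 0.08. Ets1, another ETS factor, was lower by -3.09 ± 0.11 (adjusted p = 1.34e-08). Of 23 further endothelial genes, 8 were higher, among them Pltp (3.28 ± 0.20) and Cd34 (1.99 ± 0.14), and 6 lower, among them Plvap, a component of the diaphragms of fenestrated endothelium (-2.78 ± 0.19), and the peptide receptor gene Calcrl (-2.62 ± 0.22). The 24 further mural genes split into 7 higher and 7 lower, near those shares of all genes, and Notch3, a receptor of mural cells, was lower in tissue (-2.50 ± 0.21).

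Of 16 growth factors that act on vessels, 6 were lower in tissue and 4 higher. Vegfa, the ligand of Kdr and Flt1, was at 3.39, 4.28 and 5.14 in tissue and 5.83, 6.40 and 8.98 in the lines, and every line exceeded every tissue (-2.45 ± 0.31, adjusted p = 7.98e-05). Vegfb (-1.39 ± 0.23), the apelin gene Apln (-1.41 ± 0.16) and Angpt2, a ligand of Tek (-1.38 ± 0.38, adjusted p = 0.0116), were also lower. Pdgfa (1.02 ± 0.20) and Tgfb1 (0.95 ± 0.15) were higher.

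Further matrix genes were also called in both directions. Of 26 further fibroblast and meningeal genes, 13 were higher, with the biglycan gene Bgn at 2.77 ± 0.20, Islr at 3.53 ± 0.29 and Pdgfra, a receptor of fibroblasts and oligodendrocyte precursors, at 3.20 ± 0.34, and 3 were lower, with Fbln1 at -2.38 ± 0.19. Of 18 collagen processing genes, 12 were lower, including the collagen chaperone gene Serpinh1 (-2.30 ± 0.18, adjusted p = 2.49e-06), Crtap (-1.31 ± 0.07) and P3h1 (-1.20 ± 0.10), which encode parts of the prolyl 3-hydroxylation complex, and 3 were higher, including Loxl1, a crosslinking enzyme (3.90 ± 0.32). Of 14 basement membrane genes, 8 were lower, including the agrin gene Agrn (-2.58 ± 0.10), the laminin gene Lamb1 (-2.43 ± 0.14) and Col4a5, another collagen IV chain (-2.67 ± 0.31). The 3 that were higher included Col4a2, the partner chain of Col4a1 (2.19 ± 0.17, adjusted p = 2.89e-06), and Col18a1 (1.86 ± 0.21).

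In the cultures without p53 mutation, none of the 37 genes was called between the tumour lines and normal stem cells. This was 0 of 37 between the 8 lines and the 6 hindbrain NSC (IV ventricle and cerebellar means), against 9.56% of all genes in either direction, and 3 (8.11%) had an unadjusted p under 0.05 (limma), against 22.9% of all genes. The nearest was Col4a1, at 1.61, 3.99 and 4.89 (lowest, median, highest) in the lines and at 4.33, 5.38 and 4.51 in the IV ventricle and 5.90, 4.32 and 5.47 in the cerebellar NSC (-1.44 ± 0.49, adjusted p = 0.0728). Lines 9 and 91 were the lowest, and lines 92 and 68 lay among the NSC. Without line 68, which had the highest value of the lines, Col4a1 was called (-1.64, adjusted p = 0.0386). The defining genes were low throughout: Cldn5 was at 1.94 to 2.41 in the NSC, Pecam1 at 1.47 to 2.01, Rgs5 at 1.28 to 1.92, Vtn at 1.49 to 2.19, Dcn at 2.36 to 2.98 and Col3a1 at 1.28 to 1.65. Genes of the further lists did differ. Of 26 further fibroblast and meningeal genes, 1 was higher in the lines (Pdgfra, 2.20 ± 0.47) and 1 lower (Fbln2, a matrix glycoprotein gene, -3.85 ± 0.40, adjusted p = 3.23e-05), and of 23 further endothelial genes 3 were lower (Plvap, -1.38 ± 0.32, Ltbp4, -0.81 ± 0.23, and Notch4, -0.36 ± 0.09). Of 24 genes listed as further mural genes, 2 were higher (Cspg4, 1.24 ± 0.33, and Zic1, 1.60 ± 0.46) and 1 lower (Mylk, -2.25 ± 0.41). Zic1 was at 11.13 in tissue, 9.22 in the lines and 7.62 in the hindbrain NSC, and Cspg4 at 7.16 and 5.92 in these cultures. A place in that list does not name the cells that carry the signal, which were not tested. Of 17 endothelial transcription factors 1 was lower (Sox7, -1.45 ± 0.35). Of 16 growth factors, 2 were higher and 2 lower, among the latter Apln (-2.44 ± 0.33).

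CSC from the p53 heterozygous tumours 27 and B carried high levels of a few collagen and matrix genes, while 2 of 16 endothelial genes and 0 of 11 mural genes were called. Against the 8 p53 wild-type lines, 9 of the 37 genes were higher (24.3%) and 0 lower, against 14.5% and 11.8% of all genes. The median member difference was 0.06, against 0.03 over all genes. Of the 9, 7 were among the 10 fibroblast and collagen genes, and 0 of 4 junction genes, 0 of 8 pericyte genes and 0 of 3 smooth muscle genes were called. With 2 tumours and no label mark shared between these and the wild-type lines, genotype and handling cannot be told apart. The fit gives all cultures a shared spread, so p-values of comparisons with these tumours assume that both vary like the other cultures.

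**Figure D3:**
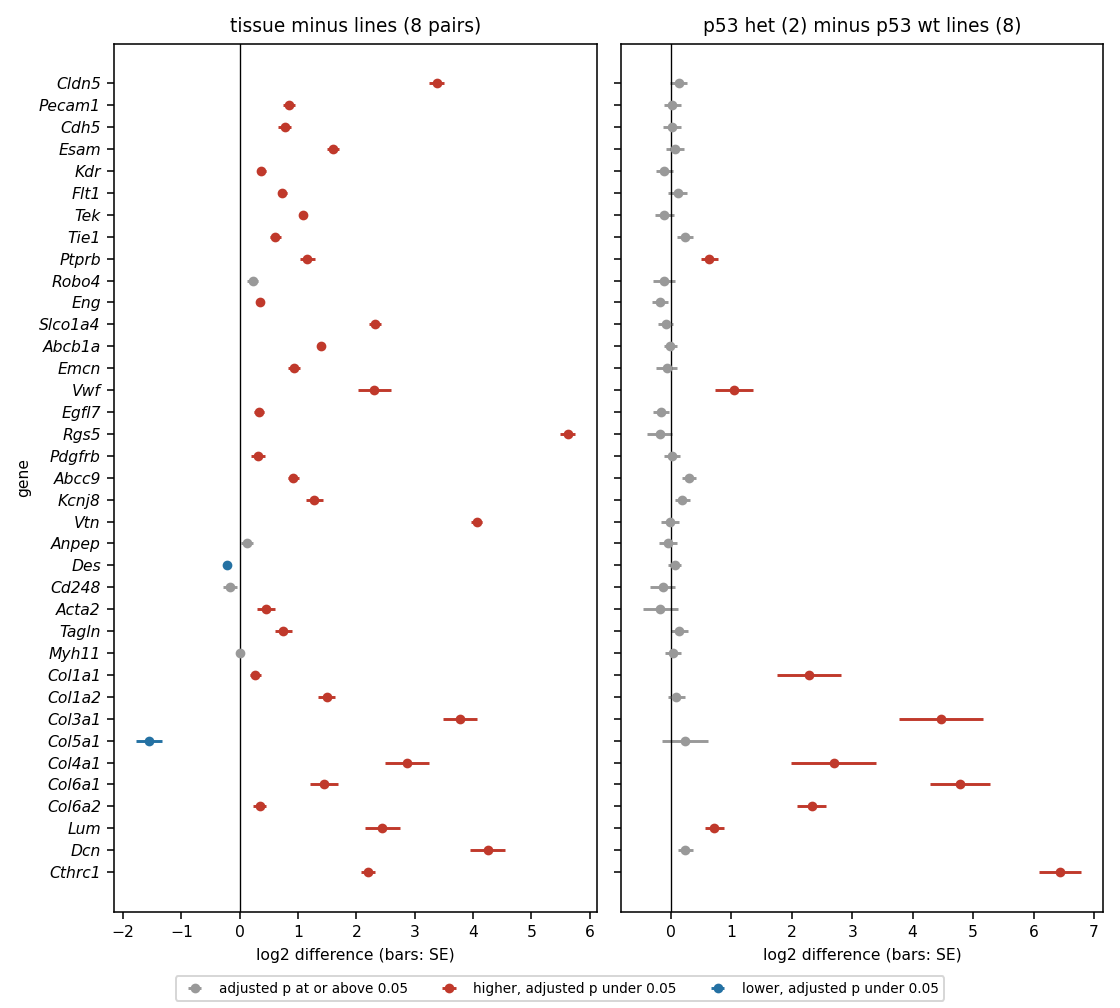
Log2 difference (horizontal, with standard error) of each of the 37 genes (vertical) for tissue minus lines (left, 8 pairs) and p53 heterozygous tumours minus p53 wild-type lines (right, 2 against 8), coloured by direction where the adjusted p was under 0.05. On the left most genes lie above 0 and Col5a1 lies at -1.55; on the right the points away from 0 are mostly collagens and Cthrc1, up to 6.44.

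Cthrc1 was at 7.28 in tumour 27 and 9.14 in tumour B, against 1.40, 1.68 and 2.72 in the lines, and so lay far above every line in both (6.44 ± 0.35, adjusted p = 6.29e-10). Col6a1 was at 8.96 in 27 and 6.54 in B against 2.55, 2.87 and 4.38 in the lines (4.78 ± 0.50, adjusted p = 1.65e-06), and Col6a2 at 7.35 and 5.77 against 4.06, 4.21 and 4.52 (2.33 ± 0.24, adjusted p = 1.49e-06). Both collagen VI chains were thus higher in each tumour than in any line. Col4a1 was at 6.94 in 27 and 5.53 in B (2.69 ± 0.71, adjusted p = 0.00905), above the highest line at 4.89. Where 1 of these tumours is left out, the other is a single sample assumed to vary like the remaining cultures, so such values describe that tumour and carry no spread of the genotype. The Col6a2 difference was 1.54 when tumour 27 was left out, and Col4a1 was then not called (1.98, adjusted p = 0.178).

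For Col3a1, Col1a1 and Vwf the tumours were far apart, with no overlap of their technical arrays. Col3a1 was at 8.33 in B and 3.26 in 27, against 1.13 to 1.49 in the lines (4.47 ± 0.69, adjusted p = 0.000116). The tumours lay 5.07 apart, while the standard deviation was 0.11 in the lines and 0.12 in the NSC. The fit pools these into a shared spread, so its standard error and p-value do not describe the spread between the tumours. Without B the Col3a1 difference from the lines was 1.94 and without 27 it was 7.01. Col1a1 was at 6.01 in B and 2.21 in 27, against 1.58 to 2.11 in the lines (2.29 ± 0.53, adjusted p = 0.00346), and it was not called without B (0.40, adjusted p = 0.126). Vwf was at 3.64 in 27 and 1.55 in B, against 1.28 to 1.74 in the lines (1.04 ± 0.31, adjusted p = 0.0189), and without 27 the difference was 0.00 (adjusted p = 0.996). Lum, at 2.66 in 27 and 1.92 in B (0.72 ± 0.15, adjusted p = 0.002), and Ptprb, at 3.29 and 3.74 (0.63 ± 0.14, adjusted p = 0.00208), were called at low signal. Lum was not called without 27 (0.35, adjusted p = 0.16), nor Ptprb without B (0.41, adjusted p = 0.106), and the arrays of Lum overlapped, at 1.72, 2.72 and 3.55 in 27 and 2.18, 1.67 and 1.91 in B. Neither further Ptprb probe set was called (0.24 ± 0.15 and 0.02 ± 0.11). On second probe sets Col3a1 rose by 2.42 ± 0.61, Col1a1 by 1.39 ± 0.31, Col4a1 by 1.65 ± 0.39 and Col6a2 by 3.75 ± 0.23.

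Other genes that differed between tissue and lines were not called here. Col1a2, which pairs with Col1a1 in collagen I, was at 2.58 in 27 and 2.51 in B against 2.07 to 2.67 in the lines (0.09 ± 0.14, adjusted p = 0.702), so the high Col1a1 of B had no counterpart in Col1a2. Dcn was at 2.86 and 2.88 (0.24 ± 0.12, adjusted p = 0.178) against a median of 7.14 in tissue, and Col5a1 at 5.28 and 5.17 (0.23 ± 0.38, adjusted p = 0.742). Abcc9 was called without line 49 (0.34, adjusted p = 0.0213) and not with it (0.30 ± 0.12, adjusted p = 0.0752). Cldn5 was at 2.39 and 2.23, Rgs5 at 1.39 and 1.40, Vtn at 1.89 and 2.11 and Acta2 at 3.82 and 3.83, all within the range of the lines.

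**Figure D4:**
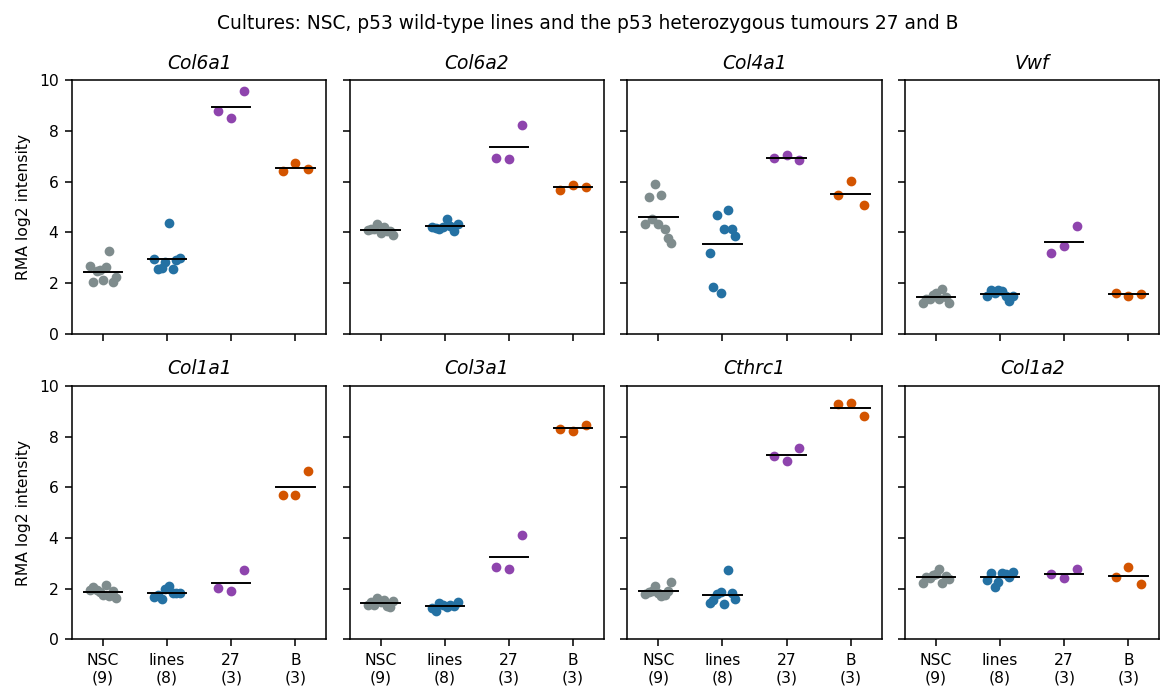
Log2 intensity (vertical) of 8 genes in 9 NSC cultures, 8 p53 wild-type lines and the 3 technical replicate arrays each of the p53 heterozygous tumours 27 and B (horizontal), with a bar at each mean. Col6a1, Col6a2, Col4a1 and Vwf are higher in 27 than in B, Col1a1, Col3a1 and Cthrc1 higher in B, and Col1a2 is level.

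The technical arrays of 27 and B overlapped for 25 of the 37 genes. For 8 (21.6%) all 3 arrays of 27 lay above all 3 of B and for 4 (10.8%) the reverse held, against 20.8% and 19.5% of all genes. Arrays of 1 tumour carry no biological spread, so no test was made. Col6a1 read 8.78, 8.52 and 9.56 in 27 and 6.40, 6.72 and 6.49 in B, and Col3a1 read 2.85, 2.79 and 4.12 in 27 and 8.29, 8.23 and 8.47 in B. Col1a1 read 2.03, 1.89 and 2.72 in 27 and 5.70, 5.69 and 6.63 in B. The third array of 27 was the highest of its 3 for Col6a1, Col3a1, Col1a1 and Vwf (4.25, against 3.19 and 3.47).

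Against the hindbrain NSC, a comparison that shares the 2 tumours with the one above, 8 of the 37 genes were higher (21.6%) and 0 lower, against 13.8% and 13.0% of all genes. The values for Cthrc1 (6.34 ± 0.36), Col6a1 (5.34 ± 0.52), Col3a1 (4.32 ± 0.72), Col6a2 (2.42 ± 0.25), Col1a1 (2.16 ± 0.55), Vwf (1.18 ± 0.32), Lum (0.63 ± 0.16) and Ptprb (0.52 ± 0.14) all carried an adjusted p of 0.0107 or less. In a fit of only the groups compared Vwf and Col1a1 were not called (adjusted p = 0.0921 and 0.0863), nor was Ptprb after repeated quantile normalization (0.0575) or Lum with the first technical array of each tumour (0.29, 0.136). Vwf (0.14, adjusted p = 0.713) and Lum (0.26, 0.33) were not called without 27, nor Col1a1 (0.26, 0.345) and Ptprb (0.29, 0.277) without B. Col4a1 was not called (1.25 ± 0.74, adjusted p = 0.253), with a mean of 4.99 in the hindbrain NSC.

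Most genes listed for cartilage, and some listed for Schwann cells and neural crest, were also higher in the p53 heterozygous tumours. Of 12 cartilage genes, 8 were higher than in the lines and 1 lower, with a median difference of 3.68 and a summed linear intensity of 4252 to 7626 against 201 to 569. Hapln1, a link protein of cartilage matrix, was higher by 8.01 ± 0.19, the aggrecan gene Acan by 6.16 ± 0.22 and Col2a1, the main cartilage collagen, by 5.16 ± 0.24, while Sox9, a factor that drives cartilage genes, was lower by -3.55 ± 0.36. Of 7 Schwann cell and neural crest genes, 4 were higher, with Erbb3 at 6.92 ± 0.32 and Sox10 at 5.83 ± 0.36 (summed intensity 1214 to 2377 against 61 to 265). The others called higher, Foxd3 and Gjb1, had means of only 2.31 and 2.45 over the p53 heterozygous tumours. With Pmp2 they made up the 3 of 7 genes at or below the guide there. Of 17 microglia genes 0 were called, and 15 of 17 lay at or below the guide. The part of these genes' source cells in the collagen differences was not tested.

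Further fibroblast and collagen processing genes were called in both directions, more of them higher, where 14.5% of all genes were higher and 11.8% lower. Of 26 fibroblast and meningeal genes, 10 were higher and 1 lower, with Mgp, an inhibitor of calcification, at 4.47 ± 0.24, the periostin gene Postn at 2.82 ± 0.25 and Bgn at 2.22 ± 0.19. The technical arrays of Mgp spread widely, at 5.52, 5.76 and 9.81 in 27 and 6.23, 6.31 and 4.0 in B. They were averaged before the fit, so its standard error does not include that spread. Of 18 collagen processing genes, 9 were higher, with Plod1 at 1.86 ± 0.27, P3h1 at 1.62 ± 0.21 and Crtap at 1.29 ± 0.17, all of which modify collagen chains, and 2 were lower. The lower ones were Bmp1, which trims procollagen (-1.27 ± 0.32), and Serpinh1, whose product folds collagen. Serpinh1 was at 3.42 in 27 and 3.47 in B, against 8.22, 8.63 and 9.47 in the lines and 8.94 to 9.35 in the NSC (-5.29 ± 0.27, adjusted p = 2.3e-10), so both tumours lay far below every other culture for it. Of 14 basement membrane genes, 3 were higher, with Col4a2 at 3.12 ± 0.36 beside its partner Col4a1, and 3 lower, with Lamb1 at -1.97 ± 0.46. Among 17 endothelial transcription factors, 7 were higher and 1 lower, with the forkhead gene Foxc2 at 4.25 ± 0.37 and Mecom at 1.89 ± 0.16 higher and Epas1 lower (-2.06 ± 0.61).

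Among the NSC, none of the 37 genes was called between regions. This held for the IV ventricle against the SVZ (0.764% of all genes called), the cerebellar white matter against the SVZ (1.10%) and the IV ventricle against the cerebellar white matter (0%), with 6, 9 and 3 of the 37 genes (16.2%, 24.3% and 8.11%) at an unadjusted p under 0.05 (limma), against 9.51%, 13.7% and 3.07% of all genes. Rgs5 was at 1.92, 1.85 and 1.77 in the SVZ, 1.64, 1.5 and 1.28 in the IV ventricle and 1.31, 1.49 and 1.34 in the cerebellar cultures, all below the guide of 2.71. It was lower in the cerebellar than in the SVZ cultures by -0.47 ± 0.11 (adjusted p = 0.0983). Col4a1, at 4.13, 3.78 and 3.56 in the SVZ, lay below all cerebellar cultures (1.41 ± 0.39, adjusted p = 0.151) and all IV ventricle cultures (0.92 ± 0.39, adjusted p = 0.498), differences that did not pass. Between cerebellar and SVZ cultures, Col4a1 was called without cerebellar replicate 2 (1.86, adjusted p = 0.0322) and Eng without IV ventricle replicate 2 (0.50, adjusted p = 0.0387), an array that enters only the shared estimate of spread. Of the further lists, the endothelial gene Calcrl was higher in IV ventricle (1.34 ± 0.23, adjusted p = 0.0336) and cerebellar cultures (1.54 ± 0.23, adjusted p = 0.0167) than in the SVZ, Fbln2 in IV ventricle cultures (2.02 ± 0.29, adjusted p = 0.0131) and Ets1 in cerebellar cultures (1.54 ± 0.27, adjusted p = 0.0315), where the collagen gene Col5a2 was lower (-1.39 ± 0.26, adjusted p = 0.0411). Both comparisons share the SVZ cultures.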

How the data were processed

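Total RNA of 31 samples was measured on 1 Affymetrix mouse array each. Per the submitters' processing notes, the authors summarised probe sets with RMA, and the deposited values are on a log2 scale of intensity. The RMA version is not given in the sources used here. Values ran from 0.417 to 12.9 and array medians from 3.166 to 3.324. Of 45101 probe sets, 34958 carried 1 symbol, and each gene was represented by the one with the highest mean over all arrays. Technical replicates were averaged, leaving 27 samples.

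Tests used limma 3.58.1 in R 4.3.3, two-sided, checked on simulated data. The tumour was a block between tissue and lines, the 19 cultures shared 1 fit and the 9 NSC another. The labels state no pairing of NSC cultures, so replicate number was a block only in an alternative fit. Deviations from the group means, matched by replicate number, correlated at 0.254 to 0.324 between IV ventricle and SVZ cultures. The values were 0.175 to 0.341 between cerebellar and SVZ and -0.138 to 0.377 between IV ventricle and cerebellar cultures. Where nothing says that cultures came from separate animals, p-values measure the spread between these samples. Of 38 genes all may be named; in other lists, up to 4 called genes were named by smallest p in the commoner direction and 2 in the other. Members and lists were chosen with earlier results of these data known. Alternatives concerned scaling, probe sets, dim genes, the prior, a 2-fold minimum, blocks and left-out samples. Figures used Python 3.11.15 and matplotlib 3.10.9.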

Additional observations from a re-analysis of the deposited data

Results flagged for a closer look

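In 4 of 74 sets of 8 samples, 1 value lay apart from the other 7, where chance alone sets apart about 1 in 20. Tissue 9 was low for 2 endothelial receptors, with Tie1 at 1.41 (next lowest tissue 1.81) and Eng at 3.96 (next lowest 4.20). Line 49 was high for Col6a1, at 4.38 (next highest line 2.97), and line 68 for Cthrc1, at 2.72 (next highest 1.86).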

How the results depend on the processing

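The number of arrays and signal over background limit these results: several endothelial genes, and Pdgfrb, Anpep, Myh11 and Col1a1, were at or below the guide of 2.71 in both groups. Genes called between tissue and lines numbered 33, and 29 to 33 when 1 tumour was left out. They were 16 of 16 tested after leaving out genes dimmer than 4 in both groups, where 7260 of all genes were called. That filter keeps genes bright in tissue alone, such as Rgs5 (7.21 in tissue, 1.59 in the lines) and Lum (4.02 and 1.57). It therefore favours genes that differ, and the full count is no separate sign of robustness. They were 18 with a 2-fold minimum, which removes the smaller differences by construction, and 2762 of all genes then passed. Median centring left 29 (median difference of all genes -0.12, against -0.06, with Pdgfrb, Acta2, Col1a1 and Col6a2 lost). Repeated quantile normalization left 28 and no tumour block 31 (Acta2 and Col1a1 lost, adjusted p = 0.0577 and 0.0614). In these settings, in that order, 9183, 9691 and 8984 of all genes were called. Kdr and Egfl7 were not called after repeated quantile normalization (adjusted p = 0.0631 and 0.0511), and Cd248 then was (-0.32, 0.0407). Between lines and hindbrain NSC, 0 genes became 1 of 5 tested without dim genes, Col4a1 (adjusted p = 0.049), with 1865 of all genes called. Fewer genes are tested there, and Col4a1 passes the filter through the NSC alone (5.23 cerebellar, 4.74 IV ventricle, 3.54 in the lines). With a sample left out, 0 to 1 were called. Between p53 heterozygous and wild-type lines, 9 became 6 to 10 with a sample left out and 9 to 12 with 1 technical array per tumour. The Vwf difference ranged from 0.00 without tumour 27, where its sign turned (adjusted p = 0.996), to 2.08 without B, and it lost its call in a fit of only the groups compared (adjusted p = 0.0822). Against hindbrain NSC, 8 became 5 of 8 tested without dim genes, where 4551 of all genes were called. Cthrc1, Col6a1 and Col3a1 pass that filter through the p53 heterozygous tumours alone, so this count is no separate sign of robustness either. A fit of only the groups compared called 6, without Vwf and Col1a1 (adjusted p = 0.0921 and 0.0863), and 4470 of all genes. Among NSC, 0 genes were called in each alternative, except between cerebellar and SVZ cultures with a sample left out (0 to 1). With the replicate number as a block, 0 of the 37 genes were called in all 3 regional comparisons, and the block changed no call of these genes. Testing each probe set on its own, an alternative chosen after seeing the data, called 33 genes between tissue and lines and 10 between the lines. Of the 34958 probe sets, 16874 and 8327 were called. With 1 technical array per tumour, 4855 to 5154 of all genes were called between p53 heterozygous and wild-type lines, against 4782 in the main fit.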
